A study of Homo sapiens with 8 samples.

Results

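Processed pseudogenes that were abundant in the HCT116 transcriptome were examined in input RNA of cells transfected with small interfering RNA against YTHDF3 (si-YTHDF3, 2 libraries) and with control siRNA (NC, 2 libraries). HCT116 is an established human colorectal cancer cell line, and YTHDF3 is a cytoplasmic protein that reads the RNA mark N6-methyladenosine (m6A). The series holds 8 libraries in 4 groups, and the other two groups are the m6A-antibody precipitates of the same cells. The titles number the si-YTHDF3 libraries 1 and 2, the study lists more than one siRNA against YTHDF3, and the sources used here do not say which siRNA was in which library. Nothing in the labels states that the replicates are separate cultures, so p-values reflect differences among these libraries alone, and those may be technical. All cells carried a transfection, and no untransfected cells were compared.

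The members were chosen by level. FPKM (fragments per transcript length, relative to the size of the library) were summed over the transcripts of each gene, and a gene was kept when its mean over the 4 input libraries reached 5 FPKM and its most abundant transcript was annotated as a processed or transcribed processed pseudogene. Of 33711 genes in the table, 5125 had such a leading transcript and 321 reached the threshold, which was 6.26% of these pseudogenes and 3.30% of the 9731 genes at 5 FPKM or more. A further 378 lay between 1 and 5 FPKM and 4426 lay below 1 FPKM. The threshold cut through a continuous range of levels. KRT8P45, PHC1P1 and NUS1P1 lay just inside it with means of 5.00, 5.01 and 5.03 FPKM, and ISCA1P1, ELOCP19 and C1DP1 just outside with means of 4.99, 4.99 and 4.97 FPKM. Since the level chose the members, their levels are given as a description. The mean passed 5 FPKM in both groups for 297 members, in the si-YTHDF3 group alone for 20 and in the NC group alone for 4.

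Processed pseudogenes arise when the messenger RNA of a parent gene is reverse transcribed by retrotransposon enzymes and inserted elsewhere in the genome. The copy lacks introns and usually the promoter of its parent, and genes with high expression in the germ line, such as those of ribosomal proteins, have left many copies. Some copies are transcribed from a nearby promoter or inside another gene. A copy shares most of its sequence with the parent messenger RNA, so a short fragment of the parent can be assigned to the copy or the reverse. How the deposited values divided such fragments is not given in the sources used here, and the level of every member is therefore uncertain in this respect. The same limit holds between copies of one parent. No sequence of these pseudogenes was available to the analysis, so identity between copy and parent was not examined.

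The annotation of the members fitted the class in most cases. The leading transcript was annotated as processed_pseudogene in 301 members and as transcribed_processed_pseudogene in 20, and 305 members had 1 transcript. A single exon was given for 318 members. The exceptions were FAM3C2 and PPIAP29 with 2 exons each and GTF2IP4, a relative of the transcription factor gene GTF2I, whose leading transcript had 22 exons and whose structure is not that of an intronless copy. Transcript length was between 75 and 3061 bases with a median of 604. Members lay on 23 chromosomes, from 35 on chromosome 1 to 2 on chromosome 21. The gene span of 52 members lay inside another gene on the same strand, 81 lay inside another gene on the opposite strand alone, and 188 lay inside no other gene. The RefSeq table of human genes (assembly GRCh38.p14) named 193 members by symbol and 45 by position, and 83 were not matched. RefSeq called 223 of the matched members pseudogenes and 13 transcribed pseudogenes, 1 protein coding (HNRNPA1P48) and 1 lncRNA.

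YTHDF3 itself, on chromosome 8, had 2.53 and 3.25 FPKM in si-YTHDF3, against 25.9 and 11.96 FPKM in NC. The groups did not overlap, and the difference was -2.27 on the log2(FPKM + 1) scale (limma, unadjusted p = 8.4e-04, adjusted p = 0.135). The NC libraries differed from each other by more than 2-fold in YTHDF3. The 6 epithelial markers examined (EPCAM, KRT8, KRT18, KRT19, CDH1 and CDX2) had means between 5.35 and 794 FPKM. Of 12 markers of leukocytes, fibroblasts and endothelium, 6 were in the table, with COL1A1 at 13.3 FPKM, CD68 at 2.23 FPKM and the others below 0.2 FPKM. In bulk RNA, fewer cells of a kind and less RNA per cell cannot be told apart.

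The 321 members added up to 20153 and 21054 FPKM in the si-YTHDF3 libraries, against 17839 and 19850 FPKM in the NC libraries. These sums were 5.37% and 5.49% of the total FPKM in si-YTHDF3, against 4.81% and 5.35% in NC. NC replicate 1 was the lowest of the 4 libraries. The median of the members' means was 16.3 FPKM, 106 lay at 5 to 10 FPKM, 98 at 10 to 30, 61 at 30 to 100 and 56 at 100 FPKM or more. The 10 highest members of a library carried between 30.4% and 32.2% of the members' sum. No member was listed at 0 in any library.

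The most abundant member was EEF1A1P5 (chr9:133019486-133020874, plus strand), a copy of the gene of translation elongation factor eEF1A1, which brings aminoacyl-tRNA to the ribosome. It was measured at 1684 and 1679 FPKM in si-YTHDF3, against 1566 and 1699 FPKM in NC. EEF1A1P6, another copy of the same parent, followed with 723 and 782 FPKM in si-YTHDF3, against 670 and 737 FPKM in NC. In both genes the libraries of the groups overlapped. RPL23AP42, a copy of a large ribosomal subunit gene, came next with 694 and 739 FPKM in si-YTHDF3, against 546 and 642 FPKM in NC, and its groups did not overlap. Copies of ribosomal protein genes filled most of the next places, namely AC026366.1 (RPS2P5 in RefSeq), RPL13AP5, RPL3P4, RPL18AP3, RPL7P9, AC116533.1 (RPL36AP37 in RefSeq), RPL9P9 and RPS3AP6, with means between 314 and 655 FPKM. The 12th place was taken by AC008038.1 with a mean of 296 FPKM, a member inside CHCHD3 on the same strand and without a parent in its name.

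The parent was read from the symbol: the part before the P and its number had to be the symbol of another gene whose leading transcript was protein coding. This gave a parent for 163 members, and 104 parents in all. A wider reading, added after the values were seen, took any gene with a coding transcript as a parent and used RefSeq names for clone-named members, which gave 231 members and 138 parents. Parents such as RPL21, RPL7A, RPLP0, PTMA and HMGB1 entered through the wider reading, because their leading transcript in these libraries was not a coding one. By parent group, 94 members were copies of cytosolic ribosomal protein genes, 20 of translation factors, 20 of nuclear RNA-binding and nucleolar proteins, 11 of chromatin proteins, 9 of cytoskeletal genes and keratins, 9 of glycolytic and metabolic genes, 7 of ubiquitin, SUMO and proteasome genes, 5 of chaperones, 4 of nuclear transport genes, GTPases and 14-3-3 proteins, and 3 of mitochondrial protein genes. Another 49 had other parents and 90 had none by name.

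Most members stood below their parent. The median level of a member was 0.139 of its parent over the 163 pairs, with quartiles of 0.0431 and 0.499. Both levels are FPKM, per transcript length, and the parent value sums several isoforms, which bears on the ratio: it was 0.234 when the sum was weighted by length and 0.260 when the leading transcript alone was used. Between pairs the ratio ran from 0.00511 for NPM1P32, a copy of the nucleolar phosphoprotein gene NPM1, upward, and 66 members lay under 0.1 of their parent. Across the pairs the Spearman correlation of the 2 levels was 0.26, given as a description, since several pairs share a parent and all share the same libraries.

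**Figure D1:**
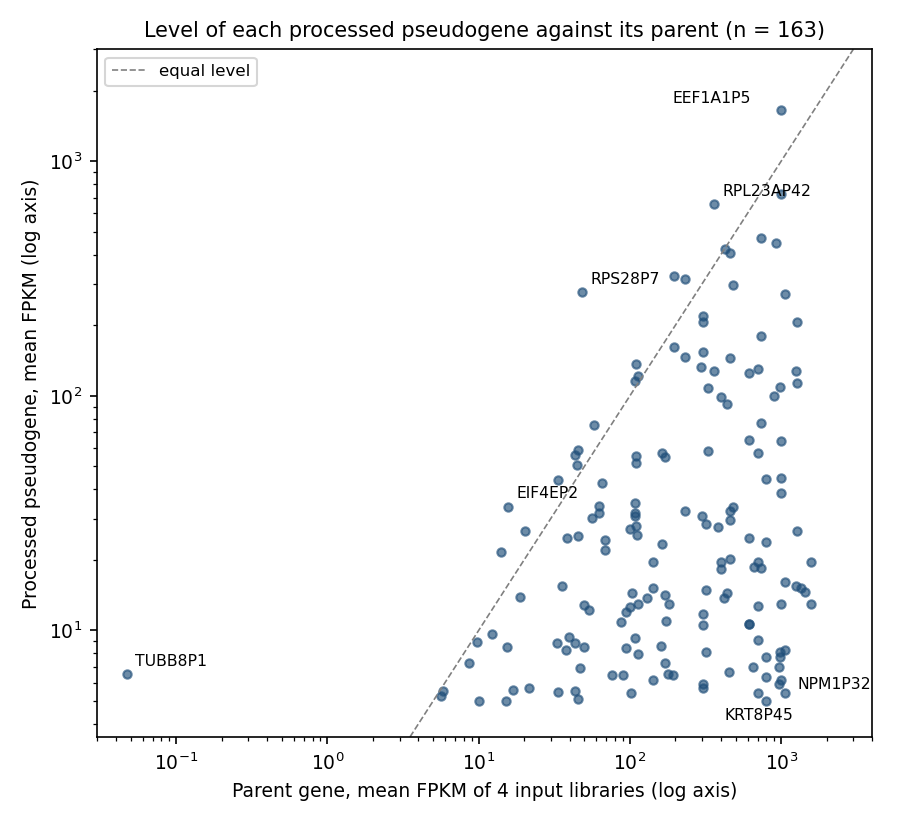
Mean FPKM over the 4 input libraries of each processed pseudogene (vertical, log axis) against its parent gene (horizontal, log axis), 1 point per pair, 163 pairs. The dashed line marks equal levels; 17 points lie above it, among them TUBB8P1, RPS28P7, EIF4EP2, RPL23AP42 and EEF1A1P5.

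A level above the parent was measured for 17 members. TUBB8P1, a copy of the tubulin gene TUBB8, had a mean of 6.49 FPKM, against 0.0473 FPKM for its parent. RPS28P7, a copy of a small ribosomal subunit gene, was measured at 237 and 339 FPKM in si-YTHDF3, against 306 and 225 FPKM in NC, and averaged 5.71 times its parent. EIF4EP2, a copy of the cap-binding factor gene EIF4E, stood at 2.14 times its parent, RPL23AP42 at 1.82 times, RPL9P9 at 1.67 times and EEF1A1P5 at 1.65 times. RPS28P7 is 210 bases long, and FPKM of transcripts that short depend strongly on how length is corrected. For the others in this group, GCSHP5, RPS3AP6, LSM12P1, EIF1AXP1, BZW1P2, PSMC1P1, H3F3AP4, RPS26P6, SRP9P1, HNRNPA3P6 and FABP5P7, the ratio lay between 1.06 and 1.53. At the other end of the list, KRT8P45, a copy of keratin 8, reached 0.0063 of its parent.

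Parents with many abundant copies were few. Under the wider reading, 96 of the 138 parents had 1 member, 42 had more and 13 had at least 4. RPL21 led with 8 members, whose means added up to 551 FPKM in si-YTHDF3 and 576 FPKM in NC. RPL21 itself averaged 198 FPKM in si-YTHDF3 and 216 FPKM in NC. EEF1A1 had 7 members, FTH1 and RPS26 had 6 each, and HNRNPA1, RPL13A, RPL7A, RPS3A and RPSA had 5 each. Copies of one parent were far from equal in level: the 7 EEF1A1 members had means from 6.16 FPKM (EEF1A1P12) to 1657 FPKM (EEF1A1P5) at lengths between 1346 and 1405 bases. The 6 FTH1 members had means from 5.40 FPKM (FTH1P20) to 130 FPKM (FTH1P2).

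The comparison of si-YTHDF3 with NC asked which members changed when YTHDF3 was lowered. It was fitted with limma on log2(FPKM + 1) over all 14457 genes with a mean of at least 1 FPKM, and fold changes on this scale understate those of low genes. All 321 members were in the fit. After Benjamini-Hochberg adjustment 1 member was higher and 0 were lower at 0.05, against a background of 0.0277% higher and 0% lower over all genes tested. At an unadjusted p under 0.05 with a 2-fold difference, 5 members were higher and 0 lower, where the background was 0.436% higher and 0.353% lower. At an unadjusted p under 0.05 alone, 28 members were higher and 6 lower, with a background of 8.29% and 6.53%. Among the 297 members that passed 5 FPKM in both groups, 1 was higher and 0 lower at the 2-fold rule. At an unadjusted p under 0.05 alone, 18 of the 297 were higher and 6 lower, and 0 passed the adjusted threshold. The remaining members include those above 5 FPKM in si-YTHDF3 alone. For these a higher level there was part of how they became members, which raises the higher counts over all 321.

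The member past the adjusted threshold was AC006001.4 (chr7:66553805-66554199, minus strand, 395 bases, 1 exon). It was measured at 15.6 and 10.3 FPKM in si-YTHDF3, against 0.0613 and 0.0616 FPKM in NC, so that the groups were wide apart. The log2 difference was 3.69 ± 0.22 (SE, n = 2 per group, limma, adjusted p = 0.0187). It passed the level threshold through the si-YTHDF3 group alone, so a difference between groups was required for it to be a member. The call was lost when either si-YTHDF3 library was left out, without the filter on low genes, and when the leading transcript alone was fitted. With a pseudocount of 0.1 the log2 difference was 6.31. AC006001.4 has no parent in its name and lies inside AC006001.3, a longer RNA on the same strand that was measured at 5.97 and 7.09 FPKM in si-YTHDF3, against 8.54 and 9.55 FPKM in NC. The longer RNA thus differed in the other direction (log2 difference -0.42, limma adjusted p = 0.311).

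The other members named for a higher level came from the 12 of largest difference at an unadjusted p under 0.05 whose libraries did not overlap between groups, and none of those that follow passed the adjusted threshold. AC098614.1 (TPM4P2 in RefSeq), a copy of the tropomyosin gene TPM4, had 13.7 and 14.6 FPKM in si-YTHDF3, against 3.36 and 5.17 FPKM in NC. Its log2 difference was 1.55 (limma, adjusted p = 0.117). The parent TPM4, whose protein binds along actin filaments, had 152 and 203 FPKM in si-YTHDF3, against 110 and 75.7 FPKM in NC, a log2 difference of 0.94. Copy and parent thus differed in the same direction. ENSAP2, a copy of ENSA, which encodes an inhibitor of a protein phosphatase at mitosis, had 12.7 and 13.7 FPKM in si-YTHDF3, against 3.57 and 5.47 FPKM in NC, with a log2 difference of 1.38 (limma, adjusted p = 0.130). ENSA had 44.8 and 41.7 FPKM in si-YTHDF3, against 20.6 and 24.4 FPKM in NC, with a log2 difference of 0.92. AF201337.1, which has no parent in its name, had 10.2 and 10.1 FPKM in si-YTHDF3, against 2.16 and 4.29 FPKM in NC (log2 difference 1.45). All 3 of these copies were lower in NC replicate 1 than in NC replicate 2. Their NC means were 4.26, 4.52 and 3.23 FPKM for AC098614.1, ENSAP2 and AF201337.1 in that order, so all 3 reached the level threshold through the si-YTHDF3 group alone, and a higher level there was part of how they became members. Leaving out 1 library gave log2 differences of 1.30 to 1.80 for AC098614.1, 1.13 to 1.63 for ENSAP2 and 1.07 to 1.82 for AF201337.1. The 3 passed the adjusted threshold without NC replicate 2, which raised the difference, and did not pass it without any of the other 3 libraries.

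**Figure D2:**
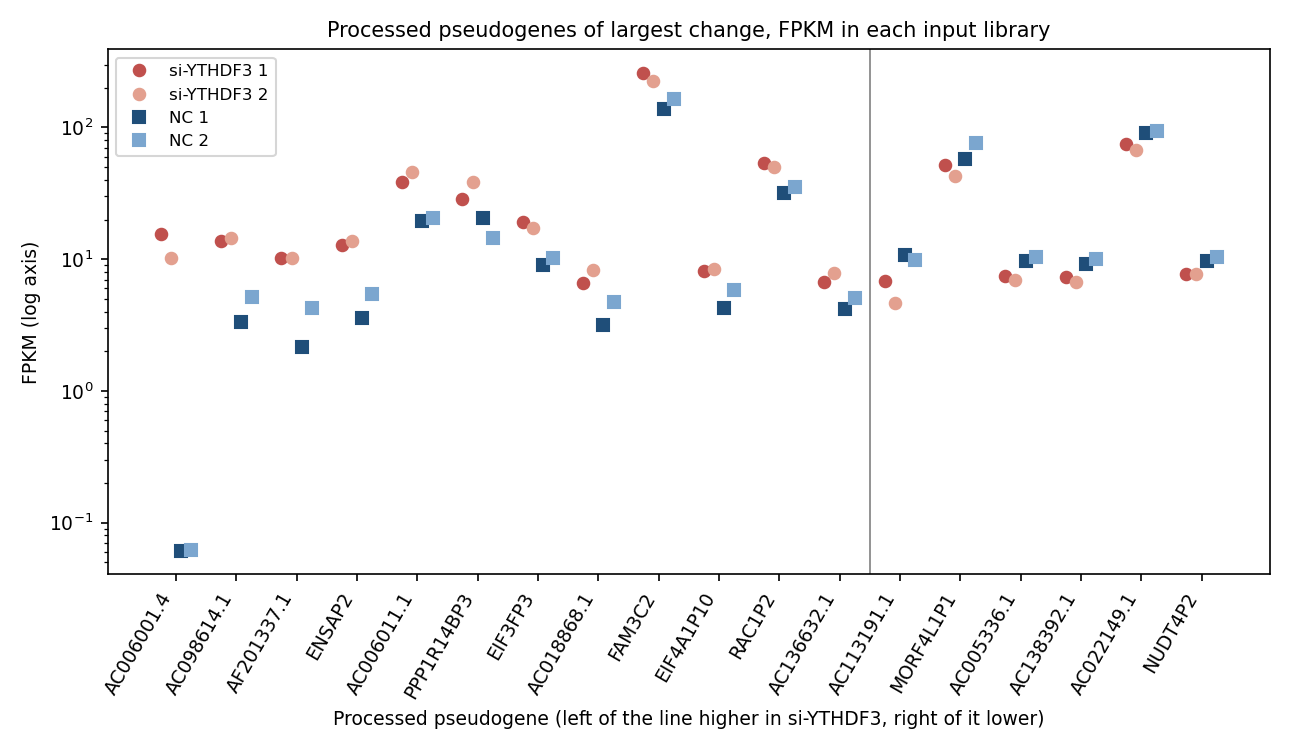
FPKM (log axis) of the 12 processed pseudogenes of largest higher difference (left of the line) and of the 6 lower ones (right of the line) at an unadjusted p under 0.05, in each si-YTHDF3 library (circles) and each NC library (squares). AC006001.4 shows the widest gap, with 15.6 and 10.3 FPKM in si-YTHDF3 against 0.0613 and 0.0616 FPKM in NC.

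The members of the next size of difference also lay beside parents or host genes that could be followed. AC006011.1 (RPS26P19 in RefSeq), 349 bases inside the RNA polymerase subunit gene POLR2D on the same strand, had 38.7 and 45.8 FPKM in si-YTHDF3, against 19.4 and 20.6 FPKM in NC. The log2 difference was 1.04 for the copy, 0.22 for its parent RPS26 and 0.66 for the host POLR2D. For RPS26, leaving out si-YTHDF3 replicate 1 gave 0.34, and leaving out si-YTHDF3 replicate 2 gave 0.10. POLR2D had 8.27 and 7.86 FPKM in si-YTHDF3, against 4.67 and 4.80 FPKM in NC. PPP1R14BP3, a copy of the phosphatase inhibitor gene PPP1R14B, had 28.8 and 38.3 FPKM in si-YTHDF3, against 20.5 and 14.6 FPKM in NC. Its parent had 170 and 128 FPKM in si-YTHDF3, against 67.8 and 82.8 FPKM in NC, and the log2 differences were 0.90 for the copy and 0.96 for the parent. ELF2, the transcription factor gene in which this copy lies on the same strand, went the other way at -0.52.

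EIF3FP3, a copy of a subunit gene of the translation initiation factor eIF3, had 19.0 and 17.4 FPKM in si-YTHDF3, against 9.09 and 10.2 FPKM in NC (log2 difference 0.85), and its parent EIF3F differed by 0.46. RAC1P2 had 53.6 and 49.8 FPKM in si-YTHDF3, against 31.7 and 35.2 FPKM in NC. The log2 differences were 0.61 for RAC1P2 and 0.58 for its parent RAC1, a GTPase gene of actin remodelling. FAM3C2, whose name resembles that of the secreted factor gene FAM3C without the P of the naming rule, had 258 and 226 FPKM in si-YTHDF3, against 138 and 164 FPKM in NC. Its log2 difference was 0.68, and that of FAM3C was 0.61. Of this group, FAM3C2 was the member of highest level. EIF4A1P10 (0.63), AC136632.1 (RPL19P9 in RefSeq, 0.55) and AC018868.1 (0.77) completed the 12, the last 2 with NC means of 4.65 and 3.96 FPKM, so that they too were members through the si-YTHDF3 group alone. The parents EIF4A1, an RNA helicase gene of translation initiation, and RPL19 differed by 0.13 and 0.09, and the sign for each turned when the leading transcript alone was fitted. The leading transcript of EIF4A1 was annotated as a retained intron and not as coding. For RPL19, the difference became 0.16 when si-YTHDF3 replicate 1 was dropped, and 0.021 when si-YTHDF3 replicate 2 was dropped.

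Lower levels in si-YTHDF3 were measured for 6 members at an unadjusted p under 0.05, none of them 2-fold and none past the adjusted threshold. MORF4L1P1, a copy of the chromatin protein gene MORF4L1, had 51.5 and 42.4 FPKM in si-YTHDF3, against 57.2 and 76.3 FPKM in NC. Its log2 difference was -0.49, and its parent, at -0.66, had 137 and 116 FPKM in si-YTHDF3, against 190 and 211 FPKM in NC. Leaving out NC replicate 2 gave -0.29 for MORF4L1P1, and leaving out NC replicate 1 gave -0.70. NUDT4P2 had 7.77 and 7.70 FPKM in si-YTHDF3, against 9.74 and 10.4 FPKM in NC, a log2 difference of -0.34. Its parent NUDT4, which encodes a phosphatase of inositol pyrophosphates, had 5.21 and 4.78 FPKM in si-YTHDF3, against 13.9 and 15.0 FPKM in NC. The log2 difference of NUDT4 was -1.36 (limma, adjusted p = 0.0670), so that the copy stood above the parent in si-YTHDF3 and below it in NC. AC113191.1 (-0.76), AC005336.1 (-0.43), AC138392.1 (-0.40) and AC022149.1 (-0.37) had no parent in their names. AC022149.1 had 74.5 and 67.9 FPKM in si-YTHDF3, against 91.1 and 93.3 FPKM in NC, while ADGRE3, in which it lies, averaged under 0.001 FPKM.

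Over 230 pairs of the wider reading with both genes tested, the Spearman correlation of the log2 differences of copy and parent was 0.47, and it was 0.39 over the 162 pairs of the stricter reading. These are descriptions: the points share libraries, some share a parent, and fragments may be shared between copy and parent. The copy had the larger (more positive) log2 difference in 124 of 162 pairs and the smaller in 38, with a median of copy minus parent of 0.13. This offset rests largely on NC replicate 1: without that library the copy was larger in 93 pairs and smaller in 69, with a median of 0.03, and without NC replicate 2 it was larger in 136, with a median of 0.23. The 103 parents tested had a median log2 difference of -0.02. Of them 0 passed the adjusted threshold in either direction by limma, 6 were higher and 4 lower at an unadjusted p under 0.05, and 1 (NUDT4) was lower by the 2-fold rule. The background over all genes was 8.29% higher and 6.53% lower at an unadjusted p under 0.05, and 0.353% lower by the 2-fold rule.

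**Figure D3:**
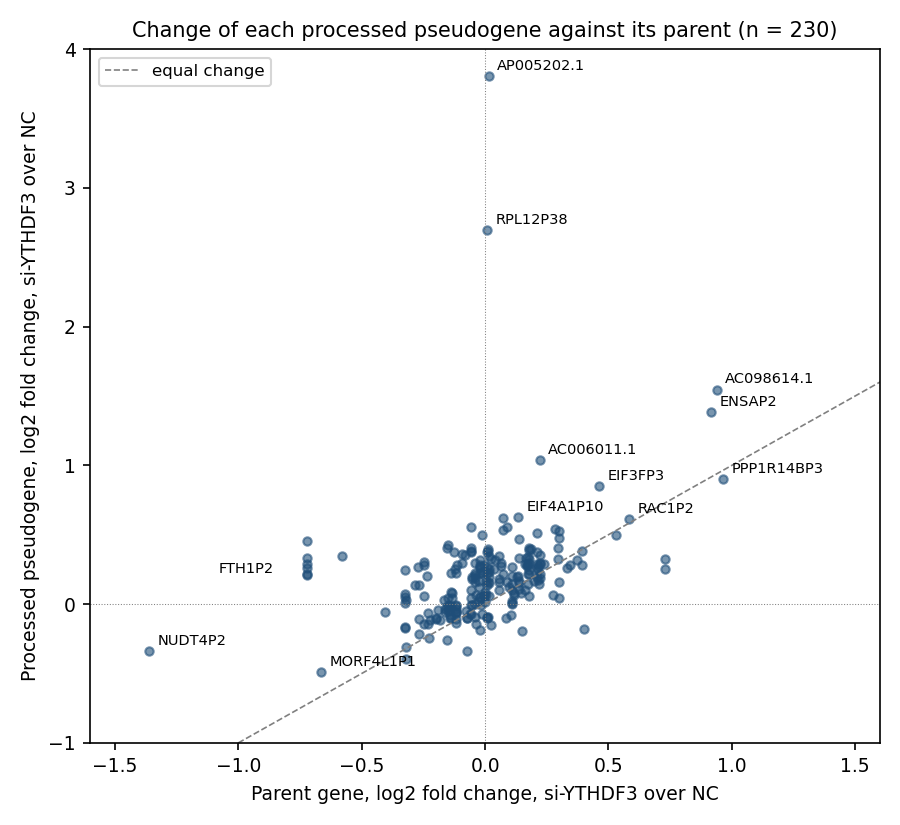
Difference in log2(FPKM + 1), si-YTHDF3 minus NC, of each processed pseudogene (vertical) against its parent (horizontal) for 230 pairs of the wider reading. The dashed line marks equal differences; AC098614.1 and ENSAP2 lie at the upper right with their parents, the FTH1 copies lie at the left above 0, and AP005202.1 and RPL12P38 lie at the top beside parents near 0.

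FTH1, the ferritin heavy chain gene, was a parent whose copies did not follow it. FTH1 had 532 and 517 FPKM in si-YTHDF3, against 695 and 1081 FPKM in NC, and its log2 difference was -0.72 (limma, adjusted p = 0.260). Leaving out NC replicate 2 moved it to -0.41, and leaving out NC replicate 1 moved it to -1.04. All 6 of its abundant copies lay above 0, between 0.21 and 0.46. FTH1P2 had 145 and 137 FPKM in si-YTHDF3, against 100.3 and 138 FPKM in NC, and FTH1P11 had 64.9 and 65.6 FPKM in si-YTHDF3, against 36.2 and 61.6 FPKM in NC. In all 6 copies NC replicate 1 was the lowest library. FTH1P7 had 21.1 and 20.7 FPKM in si-YTHDF3, against 14.9 and 21.5 FPKM in NC. In FTH1P2 the value of NC replicate 2 lay between those of the si-YTHDF3 libraries, and in FTH1P7 it lay above both.

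The same library stood low across the whole class. NC replicate 1 was the lowest of the 4 libraries in 218 of 321 members (67.9%), against 20.7% of the 9731 genes at 5 FPKM or more. The median member had 16.6 and 18.5 FPKM in si-YTHDF3, against 13.8 and 16.6 FPKM in NC. The median of NC replicate 1 minus NC replicate 2 over the members was -0.26 on the log2(FPKM + 1) scale, and for the genes at 5 FPKM or more it was 0.002. The si-YTHDF3 libraries differed by a median of -0.01 over the members. The labels name no batch that would set NC replicate 1 apart.

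**Figure D4:**
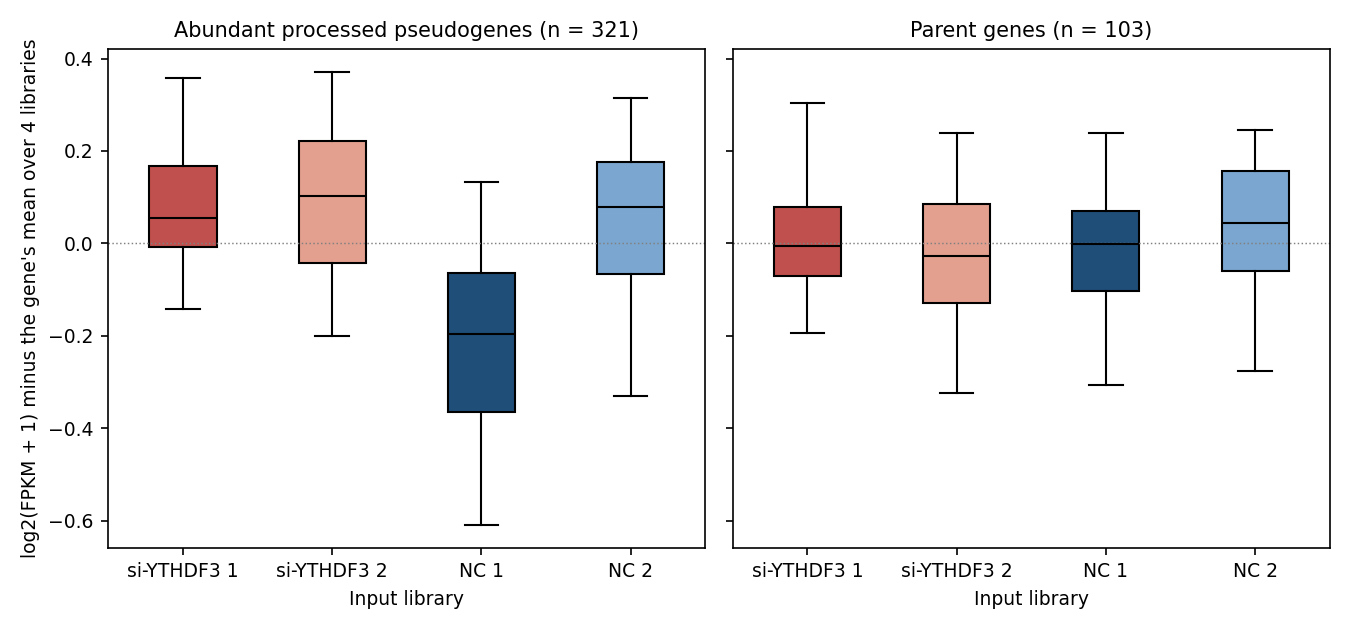
Deviation of each gene from its own mean over the 4 input libraries, on the log2(FPKM + 1) scale, for the 321 processed pseudogenes (left panel) and the 103 parents tested (right panel), by library. Boxes span the quartiles with the median as a line, and whiskers the 5th to 95th percentile; among the pseudogenes NC replicate 1 lies below the other 3 libraries, and among the parents it does not.

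The median log2 difference of the members, si-YTHDF3 over NC, rests on this library. It was 0.19, with 237 members above 0 and 84 below, and the median over all genes tested was 0.01. With NC replicate 1 left out it was 0.006, and with NC replicate 2 left out it was 0.28. It was 0.13 and 0.19 when si-YTHDF3 replicate 2 or 1 was left out. In 109 members (34.0%) both si-YTHDF3 libraries lay above both NC libraries, where the background over all genes tested was 25.3%, and in 20 members (6.23%) both lay below, where the background was 23.7%. These values include members that reached 5 FPKM through si-YTHDF3 alone. Over the 297 members at 5 FPKM in both groups the median was 0.17, with 217 above 0 and 80 below. Without NC replicate 1 it was -0.004. Both si-YTHDF3 libraries lay above both NC libraries in 93 of the 297 (31.3%) and below in 20 (6.73%).

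**Figure D5:**
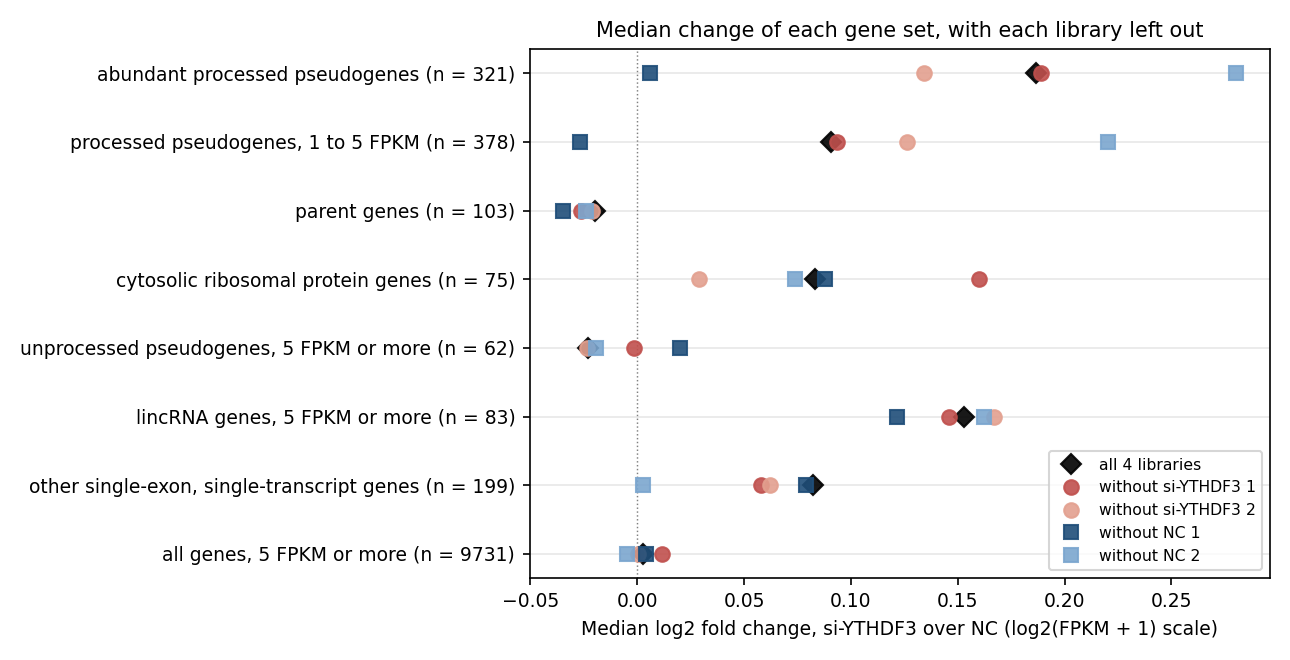
Median log2 difference of si-YTHDF3 over NC, from log2(FPKM + 1) values, for the processed pseudogenes and 7 other gene sets, with all 4 libraries (diamonds) and with each library left out. For the 321 abundant processed pseudogenes the median is 0.19 with all libraries and 0.006 without NC replicate 1; for all genes at 5 FPKM or more it stays within 0.02 of 0.

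Processed pseudogenes under the threshold gave values of the same kind. The 378 at 1 to 5 FPKM had a median log2 difference of 0.09. This median was -0.03 without NC replicate 1 and 0.22 if NC replicate 2 was left out, and NC replicate 1 was lowest in 54.2% of them. It was lowest in 26.2% of the parents, in 29.3% of 75 cytosolic ribosomal protein genes, in 19.4% of 62 unprocessed pseudogenes, which arose by duplication and not through RNA, and in 22.1% of 199 other genes with 1 exon and 1 transcript. These shares are descriptions. The lincRNA genes at 5 FPKM or more (83) also had a raised median, at 0.15, but it was 0.12 without NC replicate 1. The cytosolic ribosomal protein genes had a median of 0.08 with all libraries and 0.09 without NC replicate 1.

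Among the members the low values of NC replicate 1 were spread over levels, lengths and positions. The share of members in which it was lowest was 65.1% at 5 to 10 FPKM and 66.1% at 100 FPKM or more. By length it was 78.4% of the 74 members under 400 bases and 65.2% of the 46 members of 1100 bases or more, and the median log2 differences were 0.29 and 0.10. Without NC replicate 1 these medians were 0.10 and -0.02, so the shorter members kept a raised median. Members inside another gene on the same strand (67.3%), on the opposite strand (66.7%) and inside none (68.6%) were alike in the share with NC replicate 1 lowest. In the 20 transcribed processed pseudogenes it was 40.0%, and in the 301 others 69.8%.

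By parent group, the members copied from cytosolic ribosomal protein genes had a median log2 difference of 0.22, with 80 of 94 above 0, and 0.08 without NC replicate 1. One of them, AC006011.1, was higher by the 2-fold rule and 0 passed the adjusted threshold in limma, with 4 at an unadjusted p under 0.05, where the background over all genes was 0.436%, 0.0277% and 8.29% higher by these 3 rules. Of the 86 cytosolic ribosomal protein genes listed, 84 were tested, 0 passed the adjusted threshold, and 7 were higher and 0 lower at an unadjusted p under 0.05, beside the same background of 8.29% higher and 6.53% lower. The 20 copies of translation factor genes had a median of 0.13, which was 0.009 without NC replicate 1, and the 20 copies of nuclear RNA-binding and nucleolar protein genes had 0.04, which was -0.12 without it. Copies of chromatin protein genes (11) had 0.33, which was 0.09 without it, and copies of cytoskeletal genes and keratins (9) had 0.32, which was 0.17 without it. The 90 members with no parent by name had 0.19, which was 0.01 without it.

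Within the EEF1A1 copies, NC replicate 1 was lowest in all 7, and the gap differed from copy to copy. EEF1A1P4 had 14.5 and 16.0 FPKM in si-YTHDF3, against 7.09 and 14.1 FPKM in NC. EEF1A1P13 had 75.6 and 67.4 FPKM in si-YTHDF3, against 41.1 and 71.9 FPKM in NC. EEF1A1P19 had 43.3 and 45.9 FPKM in si-YTHDF3, against 41.6 and 48.3 FPKM in NC. NC replicate 1 was thus far below NC replicate 2 in EEF1A1P4 and EEF1A1P13 and closer to it in EEF1A1P19. The parent EEF1A1 had 954 and 1009 FPKM in si-YTHDF3, against 1005 and 1039 FPKM in NC, and its log2 difference was -0.06.

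Between the NC libraries the median absolute difference on the log2(FPKM + 1) scale was 0.29 for the members, against 0.16 for genes at 5 FPKM or more. Between the si-YTHDF3 libraries it was 0.15, against 0.17. Wide differences were few. The libraries differed by more than 2-fold in at least one group in 8 of 321 members (2.49%), against 2.33% of genes at 5 FPKM or more. Of these 8, 6 were among the 20 transcribed processed pseudogenes. AP005202.1 (RPL6P27 in RefSeq), a copy of RPL6, had 183 and 169 FPKM in si-YTHDF3, against 112 and 0.410 FPKM in NC. Its second annotated transcript was listed at 60.5 and 59.2 FPKM in si-YTHDF3 and at 0 in both NC libraries. RPL12P38 had 30.7 and 44.4 FPKM in si-YTHDF3, against 31.0 and 0.0756 FPKM in NC. In both genes the low value was that of NC replicate 2, and without NC replicate 1 both passed the adjusted threshold, at log2 differences of 6.97 and 5.14. HSP90AB2P, a copy of a cytosolic chaperone gene of the HSP90 family, had 0.147 and 7.69 FPKM in si-YTHDF3, against 4.66 and 12.9 FPKM in NC. FAM45BP had 7.22 and 1.53 FPKM in si-YTHDF3, against 6.53 and 6.30 FPKM in NC. AC005363.1, HMGN1P4, UPF3AP2 and AC004448.2 completed the 8, with differences between the libraries of a group of at most 1.29 on the log2 scale. AC005363.1 lies inside RPS2 on the same strand, a gene with a mean of 1257 FPKM.

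The remaining transcribed processed pseudogenes were steadier. AC004057.1 had 243 and 288 FPKM in si-YTHDF3, against 243 and 220 FPKM in NC, and HNRNPA1P48, which RefSeq names HNRNPA1L3 and calls protein coding, had 195 and 234 FPKM in si-YTHDF3, against 185 and 214 FPKM in NC. Their log2 differences were 0.19 and 0.10. RPS27AP16, GTF2IP4, TUBBP1, SUMO2P17, FAM27E3, AC091544.3, RPL13P5, TPM3P9, RPL26P30 and AC011447.1 had means between 6.16 and 30.7 FPKM. FAM27E3 (0.36), RPL26P30 (0.53) and AC011447.1 (0.55) were higher at an unadjusted p under 0.05 and did not pass the adjusted threshold. RPL26P30 averaged under 5 FPKM in NC, so it reached the level threshold through the si-YTHDF3 group alone. By the unadjusted rule 4 of the 20 transcribed ones were higher and 0 lower, with a background of 8.29% and 6.53%. Among the 4 were RPL26P30 and AC098614.1, both members through the si-YTHDF3 group alone. A higher level in si-YTHDF3 was thus part of how they were chosen, and the count cannot be read against the background. The leading transcript of RPL26P30 overlapped between groups, with 2.87 and 6.15 FPKM in si-YTHDF3, against 4.88 and 3.10 FPKM in NC. Its other transcript had 5.21 and 0.924 FPKM in si-YTHDF3, against 0.759 and 1.22 FPKM in NC.

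Members inside another gene on the same strand usually exceeded that gene. This held for 44 of 52, with a median of 23.9 FPKM for the members and 4.18 FPKM for the genes around them. RPL18AP3 lies inside TXNRD1, the gene of a thioredoxin reductase, and had 406 and 510 FPKM in si-YTHDF3, against 404 and 365 FPKM in NC. TXNRD1 had 281 and 314 FPKM in si-YTHDF3, against 499 and 507 FPKM in NC, a log2 difference of -0.76 (limma, adjusted p = 0.132), whereas the copy differed by 0.24. Over the 37 members whose surrounding gene was tested, the Spearman correlation of the log2 differences was -0.16, given as a description over genes that share the libraries. Whether the counting used the strand is not given in the sources used here, so fragments of a member and of an overlapping gene cannot be told apart.

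A list of 35 pseudogenes and retrocopies often discussed for transcription of their own had 24 symbols or entries in the table, of which 11 were tested and 5 were abundant members. HNRNPA1P10 had 160 and 148 FPKM in si-YTHDF3, against 139 and 168 FPKM in NC. ANXA2P2, a copy of annexin A2, had 96.8 and 94.1 FPKM in si-YTHDF3, against 86.8 and 121 FPKM in NC. PDIA3P1, SUMO1P3 and HSPB1P1 had means of 15.2, 8.24 and 6.65 FPKM. In each of these 5 the groups overlapped or differed by less than 0.27 on the log2 scale. By limma 0 of the 11 tested passed the adjusted threshold, and 0 had an unadjusted p under 0.05. The background over all genes was 0.0277% higher and 0% lower by the first rule, and 8.29% and 6.53% by the second. With 11 genes, counts of 0 say little beside these shares.

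The list of differential m6A peaks used here holds 99 peaks, all on chromosome 1. None of the 35 members on that chromosome overlapped a peak, and 0 peaks were annotated to a member. Of 19 parents on chromosome 1 under the wider reading, 2 had a peak, the ribosomal protein gene RPL5 and the decay-related gene PNRC2. The share of all chromosome 1 genes with a peak was not computed. Neither count can therefore be read as few or many.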

How the data were processed

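Total RNA of HCT116 cells transfected with siRNA was fragmented and sequenced before (input) and after precipitation with an m6A antibody. The authors deposited FPKM per Ensembl transcript (build GRCh38, per the labels) for the 4 input libraries. Neither the aligner nor the quantifier is named in the sources used here. The deposited columns with the authors' own fold changes, p-values and q-values, and those of the peak list, were not used. Depth is unknown, because FPKM keep no read numbers.

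FPKM were summed per gene, limma 3.58.1 (lmFit, eBayes with trend, in R 4.3.3) was run on log2(FPKM + 1) of genes that averaged 1 FPKM or more, and p-values were adjusted over all 14457 genes. With 2 libraries per group an exact permutation test cannot reach 0.05. Python 3.11.15 and matplotlib 3.10.9 were used. The fit was run on simulated data whose spread was drawn from the fit's own model. Such data cannot test how it treats a library that stands low across a class, as NC replicate 1 did. Clone-named members were matched to RefSeq by position at 80% reciprocal overlap. The members and gene lists were chosen with earlier results of these data known. Named genes are YTHDF3, members past the adjusted threshold, up to 12 members per direction of largest difference at an unadjusted p under 0.05 with groups apart, the 12 highest, those of largest replicate difference, the transcribed ones, those beside the level threshold, the highest of each parent group, and parents. Alternatives covered the pseudocount, filter, scaling, summing of transcripts, replicate block and each library left out. One listed pseudogene is not reported here.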

Additional observations from a re-analysis of the deposited data

How the results depend on the processing

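The number of members past the adjusted threshold was small and changed with the setting. The 1 higher member became 0 without the filter on low values, 0 with the leading transcript alone, 6 with a replicate block (when 1 was lower by adjusted p and 1 by the 2-fold rule), and 0 to 4 when each library was left out in turn. The replicate numbers were not taken to pair the libraries, since deviations of equal numbers correlated at -0.11, and with the numbers of NC exchanged 0 members were higher. Over all genes 4 were called, with the replicate block 132, and with a library left out 0 to 67. The members lower by the 2-fold rule were 0 to 2 without 1 library. The median log2 difference of the members was 0.0058 to 0.28 when a library was left out, with the low end without NC replicate 1, and moved by less than the spread between replicates otherwise. Among the parents, the replicate block gave 1 higher and 1 lower by adjusted p, the filter at 5 FPKM gave 1 lower, and the leading transcript gave 1 higher and 2 lower by the 2-fold rule. With a library left out the parents gave 0 to 1 lower by adjusted p, 0 to 2 higher and 1 to 2 lower by the 2-fold rule. A mean of at least 1 FPKM gave 699 members. The median level relative to the parent was 0.234 with a length-weighted sum and 0.260 with the leading transcript. EIF4A1 turned to -1.31 and RPL19 to -0.093 with the leading transcript, which for EIF4A1 was annotated as a retained intron and not as coding. EIF4A1 ran from -0.39 to 0.66 with a library left out. The cause of these changes was not tested. The unknown depth and the fragments shared with parents limit every level.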

Other observations

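RPSAP14 (ENSG00000233984, chromosome X), a processed pseudogene of the laminin receptor and ribosomal protein gene RPSA, lay outside the level threshold because it was nearly absent from one group. It was measured at 6.39 and 7.28 FPKM in si-YTHDF3, against 0.0092 and 0.019 FPKM in NC, with a log2 difference of 2.95 (limma, adjusted p = 0.0153), while RPSA differed by -0.04. It was chosen after its values were seen.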
